A study of Homo sapiens with 23 samples.

Results

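Actins and tropomyosins form the backbone of the thin filament, and 10 genes of the 2 families were followed here through the conversion of human embryonic stem cells into cardiomyocytes. The genes were chosen by name: the actins ACTC1, ACTA1, ACTA2, ACTG2, ACTB and ACTG1, and the tropomyosins TPM1, TPM2, TPM3 and TPM4, which are 10 of the 57477 genes in the count table. The cells were H1-hESC, an established human embryonic stem cell line of wild type genotype, taken through directed differentiation with no other genotype or treatment in the series. RNA was collected at day 0 (stem cell), day 1 (mesendoderm), day 3 (cardiac mesoderm), days 5 and 7 (cardiac progenitor) and days 10, 14 and 28 (cardiomyocyte). Each day had 3 libraries except day 10, which had 2, so 23 libraries were measured by sequencing of total RNA after removal of ribosomal RNA. All libraries come from the same cell line, and the labels name no sorting of cells.

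Actin monomers polymerise into filaments, and tropomyosin dimers lie end to end along them and, in muscle, move with troponin to control the access of myosin. ACTC1 is the cardiac alpha actin, ACTA1 the skeletal alpha actin, ACTA2 and ACTG2 are the alpha and gamma actins of smooth muscle, and ACTB and ACTG1 are the cytoplasmic actins of nearly all cells. TPM1 gives the main tropomyosin of the heart, TPM2 gives beta-tropomyosin, and TPM3 and TPM4 give tropomyosins of the cytoskeleton, while TPM3 also gives one of slow skeletal muscle. Each tropomyosin gene yields several splice forms, which counts per gene cannot separate.

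In GRCh38 the members lie far apart on 8 chromosomes. ACTC1 is on the minus strand of chromosome 15 (34790107 to 34795589), and TPM1 is on the plus strand of the same chromosome (63042620 to 63071915). ACTA1 (229430365 to 229434104) and TPM3 (154155308 to 154194648) are on the minus strand of chromosome 1. ACTA2 is on the minus strand of chromosome 10 (88935074 to 88991339) and ACTG2 on the plus strand of chromosome 2 (73892314 to 73919865). The cytoplasmic actins are on minus strands, ACTB on chromosome 7 (5526409 to 5563902) and ACTG1 on chromosome 17 (81509413 to 81523847). TPM2 is on the minus strand of chromosome 9 (35681992 to 35690056) and TPM4 on the plus strand of chromosome 19 (16067021 to 16103002). The counts cover the annotated exons of each gene.

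Actin genes are textbook targets of serum response factor (SRF), which binds a motif known as the CArG box, so the promoter windows in which that motif was found are shown. Windows of 300 bases, from 250 before the start site to 50 after it, came from RefSeq on GRCh38.p14. They matched 9 of the 10 members, with 16 windows in all, and ACTB had no window. The capitals mark the CArG box, searched as the exact pattern CCWWWWWWGG with W for A or T. It was sought on either strand, and each sequence is written 5′ to 3′ on the strand of its gene.
ACTC1 (chr15:34795500-34795799, minus strand): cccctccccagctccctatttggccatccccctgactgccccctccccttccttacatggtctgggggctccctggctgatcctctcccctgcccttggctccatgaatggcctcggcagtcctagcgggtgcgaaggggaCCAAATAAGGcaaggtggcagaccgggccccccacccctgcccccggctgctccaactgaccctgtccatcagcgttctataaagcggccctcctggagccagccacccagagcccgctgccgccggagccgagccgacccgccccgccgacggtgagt
ACTA1 (chr1:229434045-229434344, minus strand): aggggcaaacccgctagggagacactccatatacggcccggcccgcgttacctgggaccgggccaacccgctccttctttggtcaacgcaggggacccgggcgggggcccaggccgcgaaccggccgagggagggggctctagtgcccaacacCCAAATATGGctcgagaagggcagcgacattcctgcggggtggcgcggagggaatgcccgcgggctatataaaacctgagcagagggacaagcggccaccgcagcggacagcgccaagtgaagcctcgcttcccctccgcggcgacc
ACTG2 (chr2:73892758-73893057, plus strand): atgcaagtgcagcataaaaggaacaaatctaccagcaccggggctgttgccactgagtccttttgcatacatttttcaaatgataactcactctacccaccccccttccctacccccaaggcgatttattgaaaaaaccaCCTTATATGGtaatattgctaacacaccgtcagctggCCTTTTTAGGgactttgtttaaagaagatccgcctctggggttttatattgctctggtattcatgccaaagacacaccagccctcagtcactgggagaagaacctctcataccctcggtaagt
ACTG1 (chr17:81512750-81513049, minus strand): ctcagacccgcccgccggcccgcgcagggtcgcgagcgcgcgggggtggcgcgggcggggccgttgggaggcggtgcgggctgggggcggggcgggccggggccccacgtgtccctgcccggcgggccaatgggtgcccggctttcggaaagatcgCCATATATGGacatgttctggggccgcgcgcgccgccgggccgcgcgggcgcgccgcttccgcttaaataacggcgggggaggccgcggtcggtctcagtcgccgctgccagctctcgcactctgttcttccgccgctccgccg
TPM4 (chr19:16067288-16067587, plus strand): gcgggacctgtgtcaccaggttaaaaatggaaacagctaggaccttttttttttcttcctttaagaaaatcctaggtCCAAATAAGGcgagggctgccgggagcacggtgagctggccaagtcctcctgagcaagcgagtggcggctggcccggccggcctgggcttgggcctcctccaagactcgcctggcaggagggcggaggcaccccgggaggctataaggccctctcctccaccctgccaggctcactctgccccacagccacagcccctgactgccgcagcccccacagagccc
The box began 109 bases before the start site in ACTC1, 97 in ACTA1, 94 in ACTG1, 173 in TPM4, and 110 and 73 in ACTG2, which held it more than once. Over 35116 RefSeq windows of the same length, 454 (1.29%) held a CArG box, 201 (0.572%) a MEF2 site and 4049 (11.5%) the letters TATAAA, each searched on both strands. TATAAA was found in the ACTC1, ACTA1 and ACTG2 windows shown, where it did not overlap the CArG box, and the MEF2 site in no member's window. ACTC1 and TPM4 have further windows at other start sites, which held none of the motifs, as did the windows of ACTA2, TPM1, TPM2 and TPM3. A match describes the sequence and is not a measured binding site, and no match says only that these letters are not in the window. Forms a single letter off the CArG pattern were not searched or counted. Among such forms, an ACTA2 window held CCCTATATGG and CCTTGTTTGG, and the ACTC1 window shown held CCCTATTTGG. Such forms also lie in the ACTA1 window shown and in a further TPM4 window, and these examples are not a complete list.

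The shallowest library, day 5 replicate 3, held 4330334 counts and the deepest, day 0 replicate 2, held 22089595. All 10 members passed the filter on low counts among 22245 genes tested. Pluripotency markers summed to 4017 to 4264 CPM (counts scaled to a common library size) at day 0 and to 1.8 to 2.14 at day 28, over 6 genes. The 9 cardiomyocyte markers summed to 51.7 to 52.9 CPM at day 0 and to 29999 to 43573 at day 28. The labels do not say whether libraries of a day came from separate cultures, so the spread among libraries of a day may be technical. In the edgeR fit of all libraries, a p-value reflects this spread pooled over the 8 days, not that of the 2 days compared alone. In bulk RNA such as this, more cells of a type and more RNA per cell cannot be told apart.

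From day 0 to day 28 the sarcomeric and smooth muscle actins, TPM1 and TPM2 rose, and the cytoplasmic actins and TPM3 fell. In that comparison 6 members rose and 3 fell by edgeR's quasi-likelihood test (adjusted p under 0.05 over all genes tested), beside 32.1% and 28.4% of all genes. Over all genes 60.5% were called in either direction. The libraries of the 2 days did not overlap in 9 of 10 members and in 76% of all genes tested. ACTC1 had the largest rise of the 10, a log2 change of 9.11 (SE 0.43, edgeR adjusted p = 4.12e-15). ACTA2 followed at 8.67 (SE 0.41), ACTA1 at 6.45 (SE 0.44), TPM1 at 5.00 (SE 0.23), ACTG2 at 4.25 (SE 0.45) and TPM2 at 2.29 (SE 0.27). The falls were -2.80 (SE 0.26) for TPM3, -2.00 (SE 0.36) for ACTB and -1.91 (SE 0.34) for ACTG1. TPM4 differed by less than its error (log2 change -0.19, SE 0.37, edgeR adjusted p = 0.67).

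**Figure D1:**
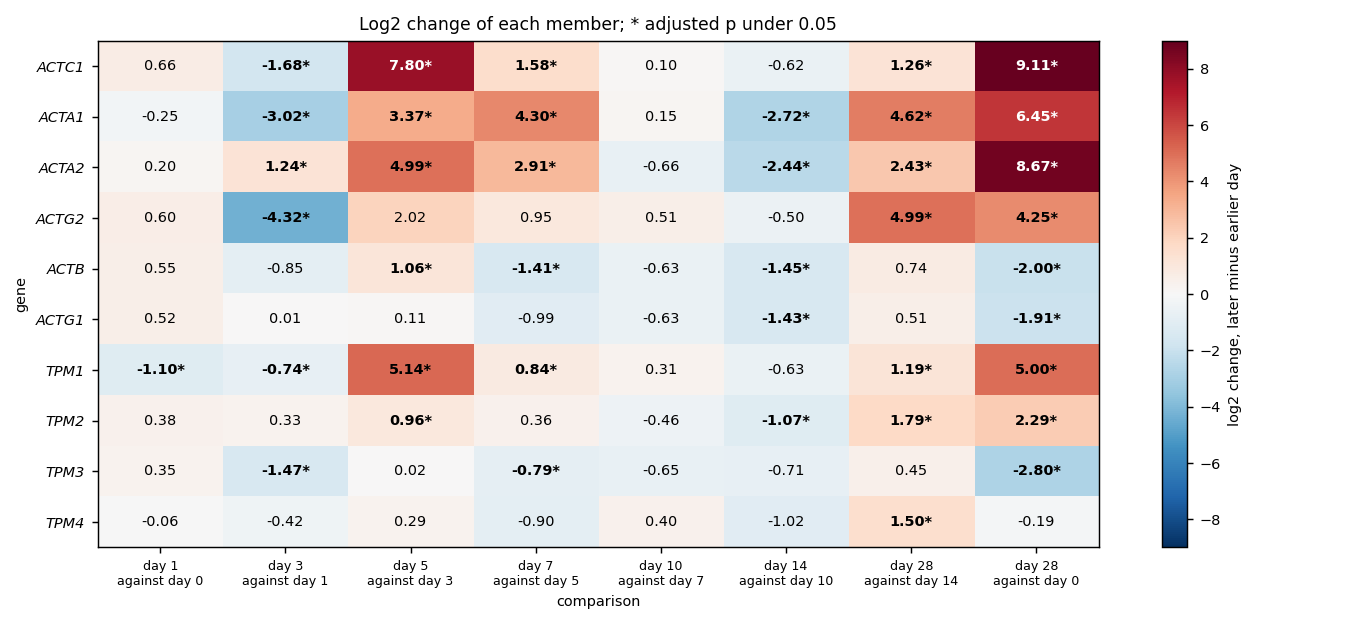
Log2 change of the 10 genes (rows) in 8 comparisons (columns), later minus earlier day; bold values with a star passed the edgeR test at an adjusted p under 0.05. Among steps between consecutive days, ACTC1, ACTA2 and TPM1 change most from day 3 to day 5 (7.80, 4.99 and 5.14), and the column of day 10 against day 7 holds no star.

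The members moved in steps. From day 0 to day 1, 0 members rose and 1 fell (TPM1), beside 15.3% and 16.5% of all genes; edgeR gave 1 member an unadjusted p under 0.05 for a rise, and DESeq2 called 0 rises. From day 1 to day 3, 1 rose and 5 fell, beside 18.2% and 19% of all genes. From day 3 to day 5, 6 rose and 4 did not pass, beside 10.3% of all genes higher and 6.33% lower. From day 5 to day 7, 4 rose and 2 fell, beside 5.32% and 5.02%. From day 7 to day 10 no member passed, while 4.17% of all genes rose and 3.5% fell (7.67% in all): 1 member had an unadjusted p under 0.05 in edgeR, and DESeq2 called 0. From day 10 to day 14, 5 fell and 5 did not pass, beside 1.64% of all genes higher and 2.11% lower. From day 14 to day 28, 7 rose and 3 did not pass, beside 7.96% higher and 7.78% lower. The falls at day 14 numbered 2 without day 10 replicate 2, without day 14 replicate 1 or without day 14 replicate 3, and those that stayed were ACTA1 and ACTA2. With only the libraries of the 2 days in the edgeR fit, several calls were lost: TPM1 at day 3 (adjusted p = 0.0623), ACTB and TPM2 at day 5 (0.242 and 0.298), and ACTB, TPM1 and TPM3 at day 7 (0.0742, 0.172 and 0.382). ACTB at day 5 was also lost with library totals (edgeR adjusted p = 0.0569) and TPM2 at day 5 with no filter on low counts (0.0731).

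**Figure D2:**
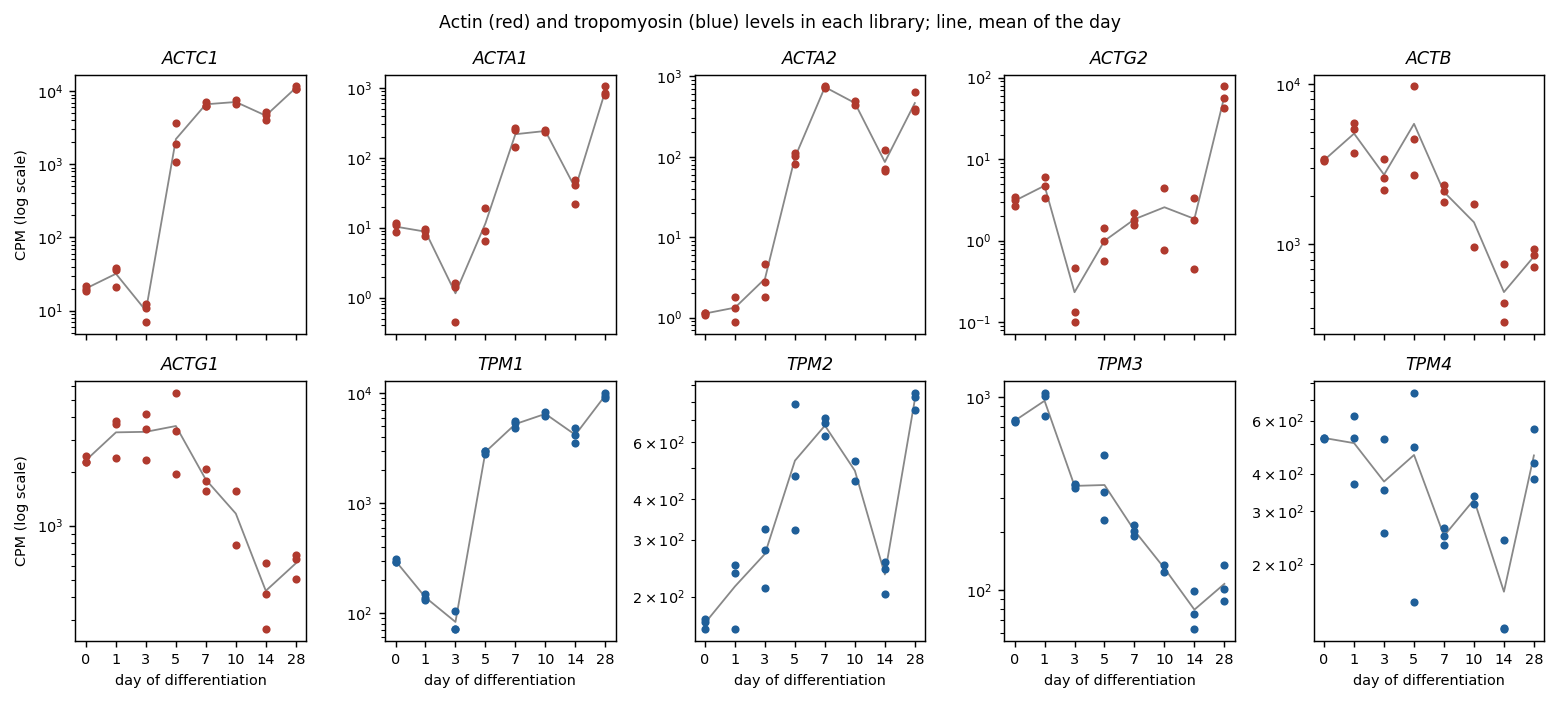
Level of each gene in CPM on a log axis (y) by day of differentiation (x, days not spaced to scale); each point is 1 library and the line joins the means. ACTC1 and TPM1 step up at day 5, ACTA1 and ACTA2 dip at day 14, ACTG2 stands highest at day 28 (42.0 to 78.3 CPM), and ACTB, ACTG1 and TPM3 lie lower in every library from day 10 on than in those of day 5.

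The cardiac actin ACTC1 was at 18.8, 20 and 21.4 CPM in the 3 stem cell libraries and at 6.93, 12.2 and 10.7 in cardiac mesoderm. It read 1890, 1068 and 3689 CPM at day 5, then 6367, 6379 and 7148 at day 7. The day 10 libraries held 6683 and 7578 CPM, those of day 14 held 4684, 5167 and 4064, and those of day 28 held 11676, 10901 and 10784. The day 28 libraries lay above all others, and those of day 7 and day 10 overlapped. ACTC1 fell from day 1 to day 3 (log2 change -1.68, SE 0.32, edgeR adjusted p = 0.000206) before it rose 223-fold to day 5. It rose again to day 7 (log2 change 1.58, SE 0.31) and from day 14 to day 28 (1.26, SE 0.31). The difference between day 10 and day 14 did not pass (-0.62, SE 0.33, edgeR adjusted p = 0.306), although their libraries did not overlap.

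The skeletal actin ACTA1 followed another course. It was at 8.7, 10.9 and 11.5 CPM at day 0 and at 0.444, 1.4 and 1.61 at day 3 (log2 change from day 1 -3.02, SE 0.43, edgeR adjusted p = 6.02e-06). It returned to 9.01, 6.48 and 19.1 CPM at day 5, which overlapped day 0, while ACTC1 was already far above its day 0 level. ACTA1 then rose to 141, 247 and 265 CPM at day 7 (log2 change 4.3, SE 0.40). It fell from 235 and 249 CPM at day 10 to 48.2, 40.4 and 21.6 at day 14 (-2.72, SE 0.39, edgeR adjusted p = 0.000214). At day 28 it stood at 1054, 856 and 805 CPM, a rise of 4.62 on the log2 scale from day 14 (SE 0.40, edgeR adjusted p = 1.13e-08). Per kilobase of transcript, ACTC1 exceeded ACTA1 2.11 times at day 0, 204 times at day 5, 35.2 times at day 7 and 149 times at day 14, and by day 28 the ratio was 13.4 (means of 3 libraries). That ratio was 12, 13.7 and 14.4 in the day 28 libraries and 105, 138 and 203 in those of day 14, with no overlap. Of 10 skeletal muscle markers, the regulators MYOD1 and MYF5 averaged at most 0.177 CPM at day 0 and were at 0.0515 and 0 CPM at day 28. MYOG, another such regulator, averaged 0.395 CPM at day 28. The summed level of the 10 skeletal markers was 31.5 to 36.7 CPM at day 0 and 6.48 to 16.9 at day 5, and it was 293 to 402 at day 7, where ACTA1 rose too. It was 494 to 579 CPM at day 14 and 151 to 236 at day 28, while ACTA1 rose. Most of the sum at day 7 and at day 28 was CKM, the muscle creatine kinase, which averaged 313 CPM at day 7 and 197 at day 28. Of 6 markers tested, 2 rose and 3 fell from day 0 to day 28 (median log2 change -1.27), beside 32.1% and 28.4% of all genes. The part of these markers in the changes of ACTA1 was not tested.

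The smooth muscle actin ACTA2 was the only member called higher from day 1 to day 3 in the edgeR fit of all libraries (log2 change 1.24, SE 0.36, edgeR adjusted p = 0.00828). The libraries overlapped, at 1.31, 0.878 and 1.81 CPM against 2.75, 4.59 and 1.81, and without day 3 replicate 2 the call was lost (edgeR adjusted p = 0.0511). ACTA2 rose to 111, 81.3 and 102 CPM at day 5 (log2 change 4.99, SE 0.35) and to 749, 720 and 730 at day 7 (2.91, SE 0.31), its highest day. The day 10 libraries held 434 and 496 CPM, all below those of day 7, yet the difference did not pass (-0.66, SE 0.32, edgeR adjusted p = 0.22). ACTA2 fell to 70.4, 121 and 66.4 CPM at day 14 (-2.44, SE 0.32, edgeR adjusted p = 7.45e-05). It rose to 369, 386 and 637 CPM at day 28 (2.43, SE 0.30), which overlapped day 10 and lay below day 7. Genes on the opposite strand overlap ACTA2, which had 48123 counts over all libraries. They are STAMBPL1 (1989 counts), FAS (1082) and the antisense gene ACTA2-AS1 (768), each counted over its whole length. The strand setting of the counting is not given. The part of reads from these genes in the low ACTA2 levels of days 0 to 3 was not tested.

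The gamma smooth muscle actin ACTG2 was low until the last day. It was at 2.68, 3.39 and 3.17 CPM at day 0 and fell to 0.133, 0.467 and 0.1 at day 3, where its lowest library held 1 count (log2 change from day 1 -4.32, SE 0.62, edgeR adjusted p = 5.56e-06). It lay between 0.451 and 4.37 CPM in every library of days 5 to 14. It reached 42.0, 56.6 and 78.3 CPM at day 28, a 31.9-fold rise from day 14 (log2 change 4.99, SE 0.50, edgeR adjusted p = 7.89e-08). Smooth muscle markers moved with ACTA2 and ACTG2 in this step. All 8 of 8 (MYH11, CNN1, TAGLN, SMTN, LMOD1, MYLK, CALD1 and SYNPO2) rose from day 14 to day 28 with a median log2 change of 2.17, against -0.03 over all genes, and 7.96% of all genes rose. Their summed level was 457 to 724 CPM at day 14 and 3007 to 3392 at day 28, and none of the 8 was at 0 on either day. TAGLN, an actin binding protein, went from 75.9 to 918 CPM and CNN1, calponin, from 134 to 1022. Of 10 fibroblast and stroma markers, 7 rose and 1 fell in the same step (median 1.94), and their sum went from 642 to 1068 CPM to 3522 to 4049. COL3A1, a fibrillar collagen, went from 260 to 2217 CPM. Their part in the rise of ACTA2, ACTG2 and TPM2 was not tested. At day 7, where ACTA2 was highest, the smooth muscle sum was 680 to 761 CPM and the fibroblast sum 1517 to 2447. None of either list was at 0 on that day. The day 5 libraries, with less ACTA2, held smooth muscle sums of 509 to 778 CPM, which overlapped those of day 7. Their fibroblast sums were higher, with 2664 to 4097 CPM. In the day 10 libraries ACTA2 was lower again, but the smooth muscle sum was higher, with 1020 to 1141 CPM. Fibroblast sums there were 1104 to 1884 CPM, which overlapped day 7. Among these days neither sum was highest where ACTA2 was.

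The cytoplasmic actins ACTB and ACTG1 ran together, with a Pearson correlation of 0.97 over the 8 day means of log2(CPM + 1). ACTB was at 3399, 3308 and 3332 CPM at day 0, 4534, 2718 and 9661 at day 5, and 721, 855 and 938 at day 28. ACTG1 was at 2249, 2263 and 2428 CPM at day 0, 3348, 1927 and 5484 at day 5, and 508, 656 and 687 at day 28. Their lowest values were at day 14, with 326, 753 and 429 CPM for ACTB and 267, 620 and 415 for ACTG1. Day 14 and day 28 overlapped in both genes. From day 10 to day 14 ACTB fell by 1.45 on the log2 scale (SE 0.38, edgeR adjusted p = 0.0318) and ACTG1 by 1.43 (SE 0.37, edgeR adjusted p = 0.0291). Without day 10 replicate 2 the edgeR adjusted p were 0.387 and 0.425, without day 14 replicate 1 they were 0.114 and 0.108, and without day 14 replicate 3 they were 0.1 and 0.0794. The rise of ACTB from day 3 to day 5 (log2 change 1.06, SE 0.35, edgeR adjusted p = 0.0369) was lost without day 5 replicate 3 (log2 change 0.42, edgeR adjusted p = 0.446). It was also lost without day 3 replicate 1 (0.152) or 3 (0.116), these being edgeR adjusted p. The fall of ACTB from day 5 to day 7 (-1.41, SE 0.35, edgeR adjusted p = 0.009) was lost without day 5 replicate 3 (log2 change -0.78, edgeR adjusted p = 0.0811) and without day 7 replicate 2 (edgeR adjusted p = 0.0721).

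TPM1, the main tropomyosin of heart muscle, was the only member to fall at day 1. It went from 313, 293 and 289 CPM to 149, 136 and 131 (log2 change -1.10, SE 0.20, edgeR adjusted p = 0.000176). It stood at 105, 72.1 and 72.0 CPM at day 3, a further fall of 0.74 on the log2 scale (SE 0.20) that was lost without day 3 replicate 2 (edgeR adjusted p = 0.054). At day 5 the libraries read 2999, 2993 and 2772 CPM, a 35.1-fold rise. TPM1 rose to 4777, 5371 and 5570 CPM at day 7 (log2 change 0.84, SE 0.20, lost with only the libraries of these 2 days) and read 6730 and 6242 at day 10, a difference that did not pass. It stood at 3520, 4837 and 4187 CPM at day 14, which overlapped day 7, and at 9496, 10069 and 9077 at day 28 (log2 change from day 14 1.19, SE 0.20, edgeR adjusted p = 8.94e-05). Over the 8 day means its course was the closest of all member pairs to that of ACTC1, with a Pearson correlation of 0.99. The antisense gene TPM1-AS, which overlaps it, had 3727 counts over all libraries against 823425 for TPM1.

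TPM2, beta-tropomyosin, was at 167, 159 and 171 CPM at day 0 and at 212, 323 and 278 at day 3. It rose to 470, 321 and 787 CPM at day 5 (log2 change 0.96, SE 0.26, edgeR adjusted p = 0.0106), but the ranges overlapped and the call was lost without day 5 replicate 3 (edgeR adjusted p = 0.101) or day 3 replicate 1 (0.0698). At day 14 it stood at 204, 255 and 243 CPM and at day 28 at 755, 829 and 852. That rise, 1.79 on the log2 scale (SE 0.27, edgeR adjusted p = 2.14e-05), was the largest of the 4 tropomyosins from day 14 to day 28. The preceding fall from day 10 (-1.07, edgeR adjusted p = 0.0348) was lost without day 10 replicate 2 (0.22), day 14 replicate 1 (0.0989) or day 14 replicate 3 (0.0707), as edgeR adjusted p.

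TPM3 was lower late in the course than early. It stood at 755, 743 and 762 CPM at day 0, 349, 337 and 353 at day 3, and 87.5, 101 and 134 at day 28. The fall from day 1 to day 3 passed (log2 change -1.47, SE 0.25, edgeR adjusted p = 5.57e-05). That from day 5 to day 7 (-0.79, SE 0.25, edgeR adjusted p = 0.0406) was lost when day 5 replicate 1 (0.309) or any of the 3 libraries of day 7 was left out (0.173, 0.168 and 0.125). Processed pseudogenes share sequence with TPM3: 9 of them in the table held 3489 counts, 2.83% of those of TPM3, so its level is uncertain by reads of such copies. For ACTB, ACTG1 and TPM4 the counts of pseudogenes came to 0.0145%, 0.259% and 0.108%. Low counts of this kind do not show that a level is free of the effect of shared reads. How reads matching both a gene and its copies were counted was not examined.

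TPM4 ended where it began, at 523, 527 and 526 CPM at day 0 and 384, 434 and 561 at day 28. It passed the test in 1 of 8 comparisons, from 122, 241 and 123 CPM at day 14 to day 28 (log2 change 1.5, SE 0.38, edgeR adjusted p = 0.00672). Its libraries at day 5 spread widest of all members, at 492, 742 and 150 CPM.

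Each gene's share of its family was taken within a library, from counts per kilobase of its canonical transcript, so the scaling of the library drops out. ACTB and ACTG1 made 99.2% of the 6 actins at day 0 and 99.7% at day 3. Their part was 74.7% at day 5, 27.7% at day 7 and 8.0% at day 28. ACTC1 made 0.472% ± 0.0269 (SD, n = 3) at day 0 and 23.8% ± 0.645 at day 5. At day 7 it made 63.2% ± 1.21, and at day 14 it made 85.2% ± 4.0. It made 81.9% ± 1.72 at day 28, which overlapped day 14. Relative to the summed actins, 4 actins rose and 2 fell from day 0 to day 28 by edgeR, beside 10.2% and 60.7% of all genes, on a scale where every gene is divided by the larger actin total of day 28. From day 14 to day 28 the shares of ACTB and ACTG1 fell by 0.54 and 0.78 on the log2 scale (edgeR adjusted p = 0.0275 and 0.00568), although their levels did not pass; on this scale 62.7% of all genes fell. The fall for ACTB was lost without day 14 replicate 2 (0.181), day 14 replicate 3 (0.0538) or day 28 replicate 1 (0.106), as edgeR adjusted p.

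The minor actins changed their order. ACTA2 made 7.18% ± 0.556 (SD, n = 3) of the actins at day 7, against 1.92% ± 0.554 for ACTA1. At day 28 ACTA1 made 6.17% ± 0.738 and ACTA2 3.51% ± 1.17. Per kilobase ACTA2 was 4.04 times ACTA1 at day 7 and 0.586 times at day 28, with 3.05 to 5.86 in the former libraries and 0.387 to 0.874 in the latter. The gap depends on the length used: per kilobase of all annotated exons ACTA2 made 3.77% and ACTA1 2.63% of the actins at day 7, and 1.76% and 8.05% at day 28, so the order was the same. ACTG2 made 0.401% ± 0.13 at day 28 and at most 0.0837% in any library of the other days. ACTB exceeded ACTG1 1.53 times per kilobase at day 0, but at day 3 the ratio was 0.988, 0.857 and 0.787 in the 3 libraries, below 1 in each. It was 1.43, 1.49 and 1.87 at day 5. The share of ACTG1 accordingly read 50.1%, 53.7% and 55.8% at day 3 and 38.2%, 38.9% and 40.4% at day 0. Its change from day 1 to day 3 did not pass (log2 change of share 0.47, SE 0.22, edgeR adjusted p = 0.118), and that from day 3 to day 5 did (-0.88, SE 0.22, edgeR adjusted p = 0.00657), where 24.6% of all genes fell. The call at day 5 was lost with only the libraries of the 2 days (edgeR adjusted p = 0.0546). In such a fit of day 1 and day 3 the rise in the share of ACTG1 passed (edgeR adjusted p = 0.0157). So did a fall in the share of ACTB (log2 change -0.39, edgeR adjusted p = 0.0275), which did not pass with all libraries (0.162).

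**Figure D3:**
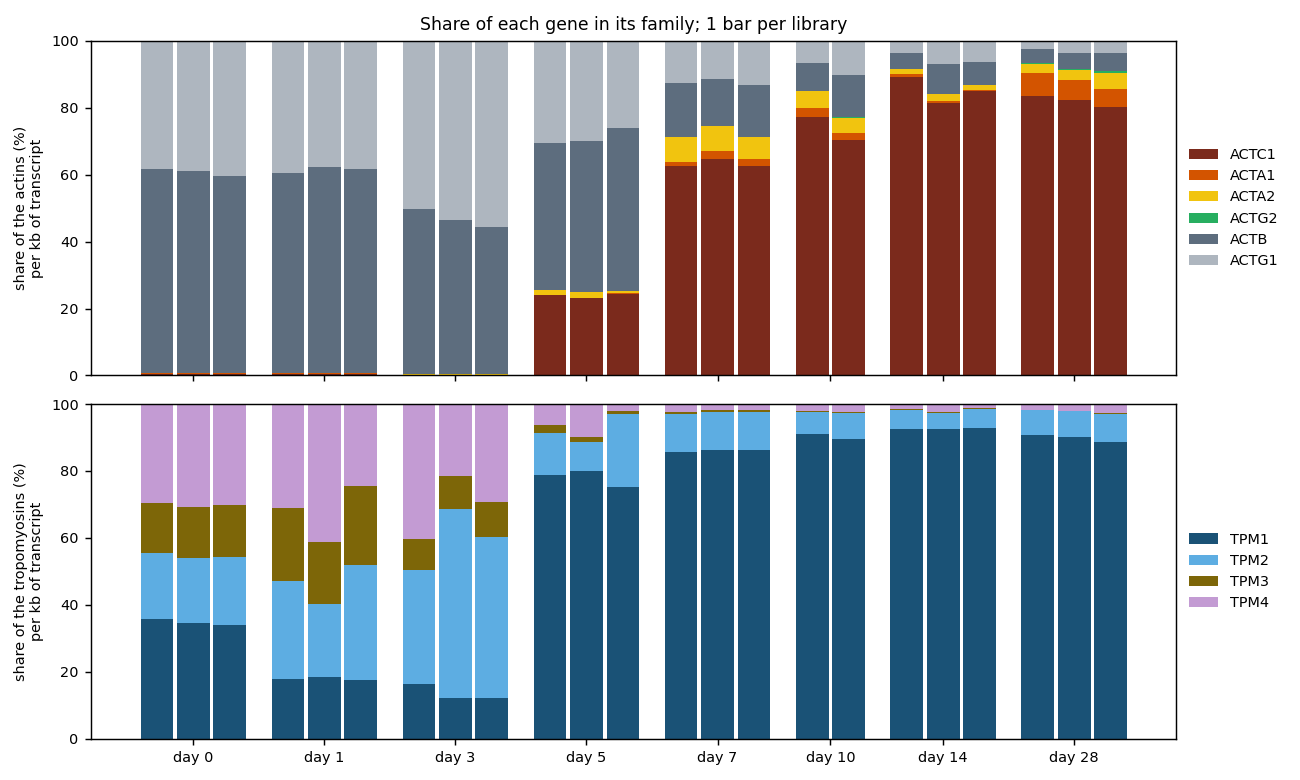
Share of each gene in the summed actins (top) and tropomyosins (bottom) in percent, from counts per kilobase of canonical transcript; each bar is 1 library. ACTC1 goes from 23.8% of the actins at day 5 to 81.9% at day 28, and TPM1 from 13.6% of the tropomyosins at day 3 to 78.0% at day 5.

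Among the tropomyosins TPM1 went from 34.8% ± 1.03 (SD, n = 3) at day 0 to 13.6% ± 2.41 at day 3 and 78.0% ± 2.54 at day 5. It made 92.6% ± 0.221 at day 14 and 89.9% ± 1.12 at day 28. TPM2 held 33.9%, 56.4% and 48.2% in the 3 libraries of day 3, while TPM4 held 40.3%, 21.3% and 29.3%. In day 3 replicate 1 TPM4 was ahead of TPM2. TPM3 fell from 15.2% at day 0 to 0.176% at day 28 and TPM4 from 30.2% to 2.14%. Relative to the summed tropomyosins, 1 rose and 3 fell from day 0 to day 28 by edgeR, beside 4.32% and 85.9% of all genes. The tropomyosin shares depend on the length used: the canonical TPM3 transcript has 7064 bases and that of TPM1 1217. With counts and no length, TPM1 made 17.1% and TPM3 43.2% of the tropomyosins at day 0, and per kilobase of all annotated exons 12.3% and 30.3%. At day 28 TPM1 made 87.4% and 68.4% on those scales. At day 3 TPM2 had the largest mean share per kilobase of canonical transcript (46.2%) and of all exons (58.9%), but with counts TPM4 led (34.4%, against 32.3% for TPM3 and 25.6% for TPM2), as it did per coding length (37.5%). The share of TPM2 fell from day 0 to day 28 only per kilobase of canonical transcript (log2 change -1.34, edgeR adjusted p = 4.1e-05). With counts it was -0.35 (edgeR adjusted p = 0.239), per coding length -0.30 (0.322) and per all exons -0.23 (0.333).

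Per kilobase of canonical transcript, the order of the 10 genes was recast between the first and the last day. At day 0 ACTB (mean 1847 CPM per kilobase) and ACTG1 (1206) led, followed by TPM1 (245), TPM4 (212), TPM2 (139) and TPM3 (107), while ACTC1 stood at 14.5, ACTA1 at 6.95, ACTG2 at 2.05 and ACTA2 at 0.837. At day 28 ACTC1 (8047) and TPM1 (7845) led, and TPM2 (682), ACTA1 (607), ACTB (463), ACTA2 (344), ACTG1 (321), TPM4 (186), ACTG2 (39.3) and TPM3 (15.3) followed. The places of the tropomyosins in this order depend on the length used, as given above.

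Across days, ACTC1 and TPM1 both had their order of means headed by day 28 and then day 10, with no overlap between the libraries of those days, and both were lowest at day 3. ACTA2 was instead highest at day 7 and ACTB and ACTG1 at day 5, where the libraries of ACTB overlapped those of day 1 and the libraries of ACTG1 those of day 3. TPM3 was highest at day 1, and TPM4 at day 0 by its mean of 525 CPM, with its libraries overlapping those of day 1.

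The 2 families did not grow in step. Summed CPM per kilobase of the actins was 3077 ± 50.2 (SD, n = 3) at day 0 and 7598 ± 596 at day 7. It was 3949 ± 584 at day 14 and 9821 ± 268 at day 28. That of the tropomyosins was 703 ± 11.3 at day 0 and 497 ± 24.2 at day 3. It then stood at 3078 ± 48.0 at day 5 and 8728 ± 385 at day 28. Per kilobase of canonical transcript, actins exceeded tropomyosins 4.38 times at day 0 and 7.02 times at day 1. On that scale they did so only 2.17 times at day 5 and 1.13 times at day 28. The size of this ratio depends on the length used, and it was not taken on other lengths. The canonical TPM3 transcript has 7064 bases, of which 855 are coding. The ratio lay between 4.29 and 8.53 in every library of days 0 to 3 and between 0.934 and 1.61 in every library from day 7 on. Together the actins took 0.557% of all counts at day 0 and 1.26% at day 28, and the tropomyosins 0.17% and 0.979%.

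The 3 libraries of day 5 stood apart from one another, and most members spread with them. Day 5 replicate 3 had the fewest counts of all libraries, and the median gene with at least 20 CPM differed 2.59-fold between the highest and lowest library of that day, against 1.11-fold at day 0 and 1.58-fold at day 3. ACTB differed 3.55-fold, ACTC1 3.45-fold, ACTA1 2.95-fold, ACTG1 2.85-fold and TPM4 4.95-fold. TPM1 differed 1.08-fold and ACTA2 1.36-fold. The summed actins were 5703, 3342 and 10947 CPM per kilobase while the summed tropomyosins were 3128, 3075 and 3032. Yet the share of ACTC1 among the actins was 24.0%, 23.1% and 24.4%. Across 10562 genes, a description since genes are not independent, the deviation of a gene from its day mean ran with the length of its transcript. Spearman's rho was 0.37 in replicate 2 and -0.37 in replicate 3. Values of like size were found on other days, with -0.40, 0.42 and -0.35 at day 1, 0.38 in day 3 replicate 1, -0.36 in day 7 replicate 3 and -0.37 in day 28 replicate 2. In day 5 replicate 3 the median log2 deviation was 0.35 over genes with the shortest transcripts and -0.51 over those with the longest, out of 3 groups of equal size. In day 1 replicate 2 these medians were -0.28 and 0.25, and in day 3 replicate 1 they were -0.23 and 0.34. Among the members TPM4 and TPM3, with the longest canonical transcripts, were 1.62 and 0.60 below the day 5 mean in replicate 3 on the log2 scale. The other members did not follow length in that library. TPM1 (1217 bases) and ACTA2 (1349) were near the mean at -0.08 and 0.05, and the longer ACTB (1812) and ACTG1 (1919) were 0.78 and 0.61 above it. The part of transcript length and depth in the changes to and from day 5 was not tested. Without day 5 replicate 3, 4 members rose from day 3 to day 5 in place of 6, and without day 5 replicate 2, 7 did. The rises of ACTC1, ACTA1, ACTA2 and TPM1 passed in each of these fits.

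**Figure D4:**
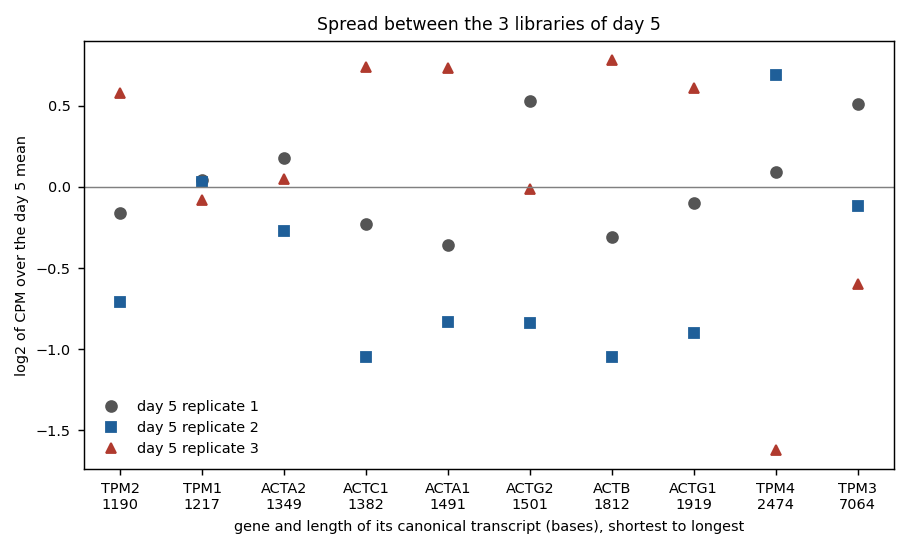
Log2 of CPM over the day 5 mean (y) for the 10 genes, ordered by the length of the canonical transcript (x, in bases); each symbol is 1 of the 3 day 5 libraries. Replicate 3 lies above the mean for ACTC1, ACTA1, ACTB, ACTG1 and TPM2 and below it for TPM3 and TPM4, replicate 2 is opposite for all of these but TPM3, and TPM1 lies within 0.08 of 0.

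Genes that act on the thin filament were described by lists. Of 7 troponin genes tested, 5 rose and 2 fell from day 0 to day 28, where the median log2 change over all genes was 0.09. TNNT2 and TNNI1, which with TNNC1 make up troponin of the early heart, rose by 9.83 and 9.59. Skeletal muscle subunits were mixed: TNNT1 and TNNC2 fell by 1.20 and 1.55 on the log2 scale, and TNNT3 rose, from 0 in all day 0 libraries to a mean of 0.932 CPM. TNNI2 was not tested, at 0 CPM on day 0 and 0.0738 at day 28. Of 11 genes for capping and length of the filament, 7 rose, 1 fell and 3 did not pass (median 1.63). LMOD2, a leiomodin that lengthens cardiac thin filaments, went from 0.0896 to 407 CPM. LMOD1, a leiomodin of smooth muscle that is also in the smooth muscle list, rose by 8.03, and the capping subunit CAPZB fell by 0.77.

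Of 14 genes of monomer supply and turnover, 4 rose, 5 fell and 5 did not pass (median -0.06), near the shares of all genes. CAP2 rose from 11.1 to 462 CPM and its relative CAP1 fell from 377 to 172 (log2 changes 5.38 and -1.13). CFL2, the muscle cofilin, rose from 23.7 to 421 CPM, and CFL1, the general cofilin, fell from 569 to 363 (4.15 and -0.65, edgeR adjusted p = 7.8e-12 and 0.04). TMSB4X and TWF2, which bind actin monomers, fell by 1.61 and 1.39. Of the profilins, PFN1 fell from 498 to 235 CPM, and PFN2, at 168 and 130, did not pass. Of 14 subunits of the chaperonin CCT and of prefoldin, which fold new actin, 10 fell, 1 rose and 3 did not pass (median -1.12). The 8 CCT subunits (TCP1 and CCT2 to CCT8 with CCT6A) all fell, CCT5 from 732 to 193 CPM. PFDN4 fell from 87.5 to 23.1 CPM and PFDN1 rose from 40.5 to 71. The summed level of these 14 was 5714 to 5823 CPM at day 0 and 2296 to 2808 at day 28, while the actins per kilobase rose between the same days.

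Of 15 formins and ARP2/3 subunits, which start new filaments, 3 rose, 5 fell and 7 did not pass (median 0.14). FHOD3, a formin of the cardiac sarcomere, rose from 13.3 to 753 CPM and its relative FHOD1 fell from 35.5 to 7.04. DAAM1 rose by 3.04 on the log2 scale and DIAPH2 fell by 1.44. Of 4 genes for SRF and its cofactors, 3 rose. MYOCD, myocardin, went from 1.71 to 661 CPM and MRTFA from 19.1 to 50.5, and SRF itself did not pass (log2 change 0.76, SE 0.33, edgeR adjusted p = 0.0529). In these lists as in the members, 32.1% of all genes rose and 28.4% fell between day 0 and day 28.

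**Figure D5:**
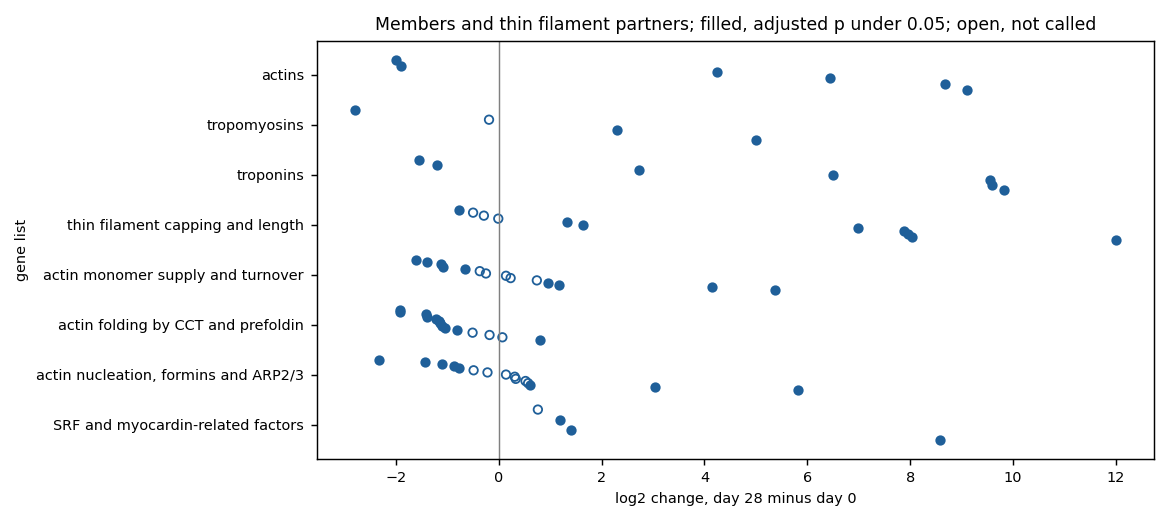
Log2 change from day 0 to day 28 (x) of the members and of 6 lists of genes that act on actin filaments (y); each point is 1 tested gene, filled where it passed the edgeR test and open where not. The troponins spread from -1.55 to 9.83, and the list of CCT and prefoldin lies mostly below 0, with 10 of 14 genes lower.

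The genes whose course was most like that of each member were found over the 8 day means of log2(CPM + 1), among 10602 tested genes of at least 20 CPM on their highest day. ACTC1 ran closest with ZER1 (Pearson correlation 0.995), ING4 (0.995) and UNC45B, a myosin chaperone (0.993). TPM1 ran with ZER1 (0.990), TNNT2 (0.989) and ACSS2 (0.988). ACTA1 ran with LMNA, which encodes lamin A/C (0.973), MARCHF2 (0.963) and the small heat shock protein HSPB1 (0.962). ACTA2 ran with VASH1 (0.993), IGFBP7 (0.987) and MECOM (0.987). ACTG2 ran with CNOT11 (0.968), PTX3 (0.960) and the chemokine CXCL12 (0.960). The genes nearest to ACTB were SPC24 (0.996), TUBA1B (0.995) and TUBB (0.993), the last 2 being tubulins. For ACTG1 they were ZNF526, GTSE1 and MICAL1 (0.992 each), and for TPM3 they were DAXX (0.997), ACOT7 (0.996) and RRM2 (0.996). TPM2 ran with FLRT2 (0.964), the protease inhibitor TIMP1 (0.963) and the collagen gene COL6A3 (0.953). TPM4 had the lowest likeness of the 10 to its nearest genes, TMSB4X (0.931), ARHGAP45 (0.921) and CENPN (0.908). These correlations rest on 8 points from the same libraries, chosen as the highest of many, and are given as a description.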

How the data were processed

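The authors deposited 1 table of raw counts, with genes in rows and libraries in columns. The submitters' processing notes name Trim Galore 0.65 (trimming), STAR 2.7.0 (alignment), HTSeq-count (counting), the build GRCh38 and GENCODE v38. The strand setting is not given in the sources used here, and the identifiers look older than that release. Left out were 44 Y copies of pseudoautosomal genes, all at 0. Symbols, positions and transcript lengths came from GENCODE v44, and promoters from RefSeq.

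Levels were fitted with edgeR 4.0.16 (R 4.3.3): filterByExpr with a minimum of 10 counts, TMM scaling, and day as factor in a robust quasi-likelihood fit over the 23 libraries. The p-values were adjusted by Benjamini-Hochberg over 22245 genes, and calls were made under 0.05. The SE given with a log2 change was derived from the test, as the size of the change over the square root of its F statistic. For shares, each library was scaled to the summed counts per kilobase of the family, with the same model. DESeq2 1.42.0 was an alternative, as were other scalings, filters, lengths and libraries. The fit was also run on simulated counts with a like spread for all genes and libraries, for a single comparison of days. That run cannot show how the fit deals with a spread that differs between days, as it does in these libraries. Library totals ranged from 4330334 to 22089595 counts.

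The members and lists were chosen with earlier results of these data known. Named were all members, of each list the 2 largest called rises and 2 largest falls plus any list member a sentence counts, and 3 genes most like each member. CFL1, CAP1, PFN1, PFN2 and TNNC1 were named after their values were seen, as relatives of genes in the lists.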

Additional observations from a re-analysis of the deposited data

How the results depend on the processing

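The counts of members called moved as follows. With only the libraries of the 2 days in the fit, 3 members rose at day 1 (0 in the fit of all libraries), 0 fell from day 5 to day 7 (2) and 3 fell from day 7 to day 10 (0), namely ACTA2, TPM2 and TPM3. In the same fits 2 shares rose and 2 fell at day 1 (0 and 1), and 2 fell from day 7 to day 10 (1). From day 5 to day 7, 1 fell with RLE scaling and 1 with library totals. The share that fell from day 7 to day 10, TPM3, was lost per length of all annotated exons (0 fell). Leaving out 1 library gave 0 to 1 rises at day 1, 0 to 1 rises at day 3, 0 to 3 falls at day 7 and 2 to 5 falls at day 14. For shares it gave 1 to 2 rises at day 3, 0 falls at day 10 whichever library was left out, and 0 to 3 falls at day 14. No called value changed sign. Of 460 levels with 1 library left out, 22 calls were lost and 8 gained, and 14 values that passed in neither fit changed sign.

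The labels do not say whether the replicate numbers pair the libraries. Over 63 same-numbered pairs the correlation of deviations had a median of 0.02 (-0.81 to 0.88), and 22 pairs were over 0.1. Over 126 pairs of different number the median was 0.00. Day 10 was left out of these pairs. With so wide a range, the median does not settle whether libraries were paired. With the replicate block 1 member fell from day 5 to day 7 (TPM3 lost), 6 fell at day 3 (ACTB gained), and 0 shares fell from day 7 to day 10.

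Over all genes, calls with only 2 days' libraries were 1402 against 3698 (day 5 against day 3), 755 against 2301 (day 7), 4499 against 1706 (day 10), 1861 against 833 (day 14) and 6274 against 3501 (day 28 against day 14). DESeq2 called 1314 against 833 at day 14. Without 1 library, 3944 to 8397 were called at day 1 (7081 with all), 2878 to 7886 at day 5, 1311 to 3855 at day 7, 292 to 1005 at day 10 and 186 to 778 at day 14. Library totals moved the median of all genes from 0.04 to 0.27 at day 3, -0.09 to 0.05 at day 7, 0.03 to -0.15 at day 10, -0.03 to -0.23 from day 14 to day 28 and 0.09 to -0.03 from day 0 to day 28. The percent of calls that were higher went from 48.9 to 64.0, 51.5 to 67.9, 54.4 to 32.0 and 50.6 to 32.0 in the first 4 of these. The cause was not tested. Fewer genes and samples enter fits of 2 days.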
